A study of Rattus norvegicus with 6 samples.

Results

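The Id genes and the E-protein genes encode the antagonists and the partners of neuronal basic helix-loop-helix (bHLH) transcription factors. All probe sets whose platform gene symbol was Id1, Id2, Id3, Id4, Tcf3, Tcf4 or Tcf12 were taken, which gave 13 probe sets of 7 genes among 14218 genes with a symbol of their own on the array. Of these probe sets, 8 belonged to Id genes and 5 to E-protein genes. None of the 13 carried the symbol of a further gene, and each symbol was matched by gene number to the same symbol in RefSeq (GRCr8).

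The cells were rat primary cortical cells. In the Math2 group they had been given an expression vector for Math2, an older name of the bHLH factor Neurod6. In the control group they had been given a control vector. Both groups also carried a second vector for a low-affinity nerve growth factor receptor without its cytoplasmic part (LNGFR), at 2.7 µg beside 13.3 µg of the Math2 or control vector in a 10-cm dish. This receptor served as a surface tag for selecting transfected cells 24 h later. The sources used here give neither rat strain or age, nor the promoter of the vectors or the insert of the control vector. RNA of the selected cells, 50 ng per sample, was amplified in a pair of cycles and hybridized to Affymetrix Rat Genome 230 2.0 arrays, 3 control and 3 Math2. The labels do not say whether the samples came from separate cultures, so a p-value here reflects the spread between these 6 samples alone, and that spread may be technical.

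bHLH factors bind DNA as dimers, through a basic region beside the helix-loop-helix that joins the partners. Class I factors, the E proteins encoded by Tcf3 (E2A, which gives E12 and E47), Tcf4 (E2-2) and Tcf12 (HEB), are broadly expressed and pair with tissue-restricted class II factors such as Neurod6. The dimers recognize the E-box, CANNTG. Id proteins have the helix-loop-helix but no basic region, so that they bind E proteins into dimers that cannot bind DNA. In the developing cortex Id genes are known for their expression in progenitors and glia, where they hold back neuronal differentiation, and Id transcription is known to be induced by bone morphogenetic proteins (BMPs).

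The arrays carried RNA of neurons and glia, and markers of fibroblasts and meninges were present too. Of 10 neuronal markers, 8 passed the filter on low values described below, among them Dcx and Stmn2, with mean control signals of 3493 and 3603. Of 8 astrocyte and radial glia markers on the array, 7 passed, with mean control signals from 171 for S100b to 17685 for Fabp7. Of 7 oligodendrocyte lineage markers 4 passed, with mean control signals from 110 for Mbp to 6967 for Olig1. The filter kept 18625 of the 31042 probe sets compared, and each marker was taken by its brightest probe set. Passing it therefore does not by itself show that a gene was expressed. Of 7 fibroblast and meninges markers, 5 passed, among them Fn1 and Col1a2, with mean control signals of 3502 and 2338. None of 6 microglial markers and 1 of 5 endothelial markers did. The fibroblast marker Pdgfrb had a control mean of 51.7 and a Math2 mean of 200. Its mean log2 level on the control arrays lay under the filter level, so it passed only through the Math2 arrays. The endothelial marker, Tek, had a control mean of 74.2 and a Math2 mean of 55.3, and it passed only through the control arrays. Neurod6 itself ranged from 207 to 973 in the control group and from 167 to 1546 in the Math2 group. It did not separate the groups. Since the transfected sequence is not stated in the labels, its probes need not match that sequence, and these signals are no check of the labels. Median signals were 102 to 120 per array, and the number of arrays limits the precision. Hybridization spike-ins, control transcripts added before hybridization, had signals of 1893 to 2566 on the control arrays and 3875 to 6773 on the Math2 arrays (exact two-sided permutation p = 0.1, the smallest that 3 against 3 arrays can give). In addition, 186 of the 187 brightest tested probe sets (the top 1%) were higher on the Math2 arrays, with a median log2 difference of 0.43. The brightest Tcf4 probe set is one of them. The brightest Id2 and Tcf12 probe sets are less bright, with mean log2 levels of 13.34 and 12.71 against at least 13.43 in the top 1%. All 3 belong to the brightest of 20 bins of tested probe sets, of which 79.6% were higher on the Math2 arrays, with a median of 0.17. Quantile normalization brought the median of the top 1% to -0.028 and cyclic loess normalization to 0.21. The part of this shift in the members' differences was not tested, and their values after both normalizations are given beside them. The RNA is that of a mixed culture, so fewer cells of a type and less RNA per cell cannot be told apart.

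All differences below are on the scale of log2(signal + 7.42), Math2 minus control, where the added constant is the 10th percentile of all positive signals. This scale understates the change of dim probe sets. Of the 13 probe sets, 12 reached the filter (a mean log2 level of 6.07, the 40th percentile) and were tested in limma with Benjamini-Hochberg adjustment over 18625 probe sets. Only the Tcf3 probe set did not. At an adjusted p of 0.05, limma called 0 of the 12, and it called 0% of all tested probe sets. With the array number as a replicate block it also called 0 of the 12, against 0.0161% of all, and with the block and quantile normalization 0 of the 12, against 0.0322% of all. At an unadjusted p of 0.05 in limma, 4 of the 12 were higher on the Math2 arrays and 0 were lower, and 1.75% of all tested probe sets were higher by that measure. With the block these were 6 of the 12, and 3.78% of all. Of the 12, 11 had a log2 difference above 0, which held for 45.7% of all tested probe sets. Math2 was higher in all 3 numbered pairs for 6 of the 12 and for 13.1% of all. The groups did not overlap, with Math2 higher, for 3 of the 12 and for 3.7% of all, and after quantile normalization for 3 of the 12 and 3.02% of all. These probe sets come from 6 genes and share targets within a gene, so they are not 12 independent measurements. The median log2 difference was 0.53 over the 8 Id probe sets, 0.33 over the 4 tested E-protein probe sets and -0.031 over all tested.

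**Figure D1:**
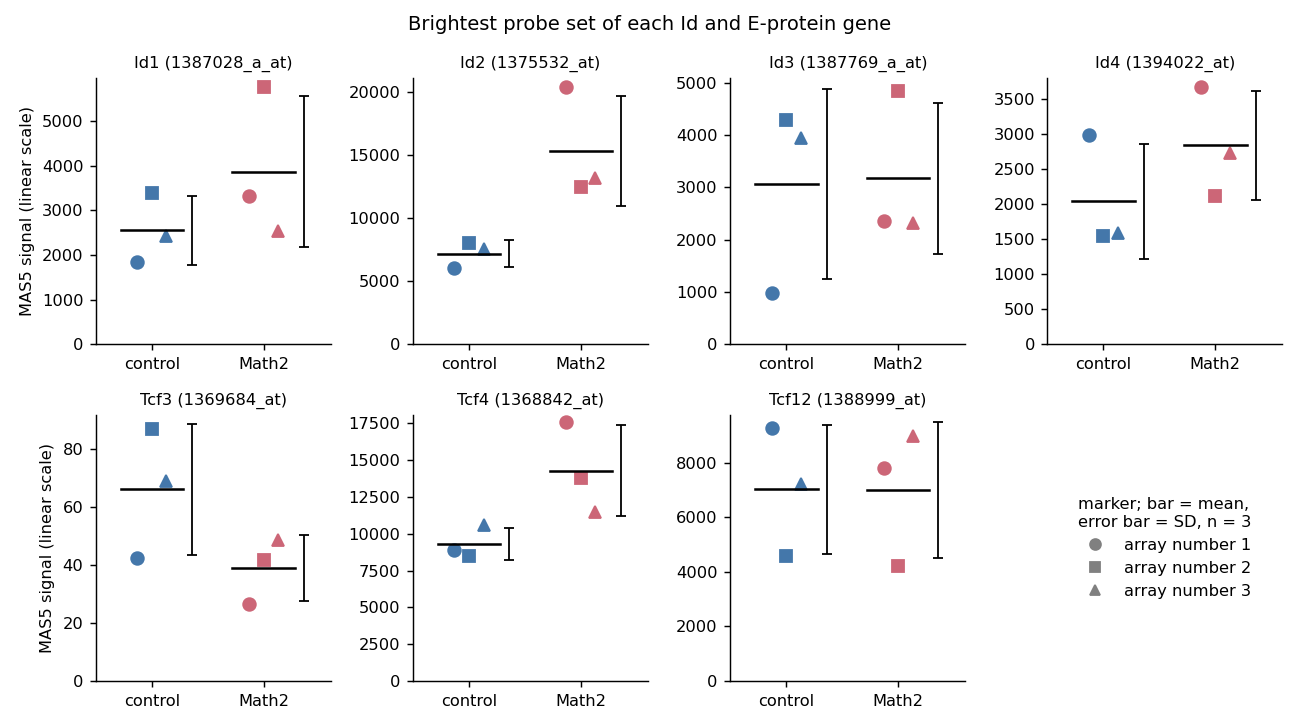
MAS5 signal (linear scale from 0) of the brightest probe set of each gene on the 6 arrays; horizontal bars are means, error bars are SD (n = 3), and marker shapes give the array number. Id2 and Tcf4 are the genes here whose groups do not overlap, with Id2 at 6019 to 8037 on the control arrays and 12496 to 20379 on the Math2 arrays.

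Id2 was the Id gene with the largest difference in a bright probe set. Id2 protein sequesters E proteins and is known in neural progenitors and glia. Its brightest probe set, 1375532_at, had signals of 6019, 8037 and 7532 on the control arrays numbered 1, 2 and 3 and of 20379, 12496 and 13168 on the Math2 arrays in the same order. No Math2 array reached down to the control arrays, and Math2 array 1 stood highest. The log2 difference was 1.07 (SE 0.222, 95% interval 0.58 to 1.56), a 2.09-fold difference. It ranked 7 among the 18625 tested probe sets by p and did not pass in limma (adjusted p = 1, or 0.155 with the replicate block; exact permutation p = 0.1). Within pairs 1, 2 and 3 the log2 differences were 1.76, 0.64 and 0.81. After quantile normalization the difference was 0.80 and after cyclic loess normalization 0.89, and the groups did not overlap in either case.

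The other Id2 probe set, 1368870_at, did not show this difference. It had signals of 143, 627 and 265 on the control arrays and of 273, 522 and 223 on the Math2 arrays, in the order of the numbers. The groups overlapped fully, and the log2 difference was 0.13 (SE 0.509, 95% interval -0.996 to 1.26; limma adjusted p = 1). Math2 was higher in 1 of 3 pairs. Its mean signals of 345 and 339 lay well above the array medians. The 2-fold difference of Id2 therefore rests on 1 of its 2 probe sets. Within pairs 1, 2 and 3 the dimmer probe set differed by 0.90, -0.26 and -0.24 on the log2 scale, which is 0.86, 0.90 and 1.05 less than the brighter one in the same pair.

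The RefSeq promoters of Id2 and Id3 are shown because these genes lie at the ends of the Id range among the brightest probe sets, with log2 differences of 1.07 and 0.22, and because the transfected factor is of a class that binds E-boxes. Each run is the 250 bases before the RefSeq start on GRCr8, 5′ to 3′ on the gene's strand, in lower case with any E-box (CANNTG, the same on both strands) in capitals. Id2 lies at chr6:47470996-47471245 on the minus strand and Id3 at chr5:153656041-153656290 on the plus strand.
Id2: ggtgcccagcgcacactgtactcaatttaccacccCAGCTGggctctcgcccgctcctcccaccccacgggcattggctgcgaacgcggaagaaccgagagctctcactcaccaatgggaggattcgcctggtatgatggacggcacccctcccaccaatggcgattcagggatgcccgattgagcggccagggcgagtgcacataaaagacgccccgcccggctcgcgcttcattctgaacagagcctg
Id3: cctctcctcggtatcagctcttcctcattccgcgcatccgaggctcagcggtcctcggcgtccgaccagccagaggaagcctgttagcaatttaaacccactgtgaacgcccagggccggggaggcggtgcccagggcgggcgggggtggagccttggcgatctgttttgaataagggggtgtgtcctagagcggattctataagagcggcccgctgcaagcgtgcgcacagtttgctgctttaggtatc
Id2 held 1 match, CAGCTG, which begins 215 bases before the start, and Id3 held 0. Among the other genes Id1 held 1 match (CAACTG), Tcf3 held 2 (CATTTG and CAGATG), and Id4, Tcf4 and Tcf12 held 0. A match was present in 65.5% of 33469 RefSeq promoters of this length, so its presence is common. A match is a description of the letters, and no match says only that they are not in this window.

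Id4 had 4 probe sets, and the brightest 3 of them gave one picture while the dimmest gave another. Id4 differs from the other Id proteins in that it is also known to bind them and counteract them. Probe set 1394022_at had signals of 2988, 1546 and 1583 on the control arrays numbered 1, 2 and 3 and of 3669.8, 2117 and 2726 on the Math2 arrays. Probe set 1375183_at had 1711, 777 and 824 on the control arrays and 2946, 1488 and 1494 on the Math2 arrays. Probe set 1385923_at had 677, 322 and 374 on the control arrays and 1316, 839 and 972 on the Math2 arrays. In all 3, array 1 was the highest of its group in both groups, and every Math2 array lay above the control array of its number. Without regard to the number, the groups overlapped for the first pair of these probe sets, because control array 1 lay above Math2 arrays 2 and 3, and they did not overlap for 1385923_at.

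The log2 differences of these Id4 probe sets were 0.51 (SE 0.309), 0.85 (SE 0.369) and 1.22 (SE 0.331), in the same order, with limma adjusted p = 1 for each. The largest, for 1385923_at, had a 95% interval of 0.49 to 1.96, ranked 29 of 18625 by p, and had an exact permutation p of 0.1. With the replicate block the SEs were 0.191, 0.197 and 0.226, smaller than without it, and the limma adjusted p were 0.54, 0.233 and 0.123. Quantile normalization left the differences at 0.50, 0.89 and 1.28, and cyclic loess normalization at 0.50, 0.90 and 1.31. Their brightness, at the 92.9, 88 and 78.5 percentile, lay below that of the top 1%. Within pairs 1, 2 and 3 the log2 difference of 1375183_at was 0.78, 0.93 and 0.85, the narrowest spread of any member, and that of 1385923_at was 0.95, 1.36 and 1.36.

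The dimmest Id4 probe set, 1375120_at, had signals of 52.6, 157 and 91.0 on the control arrays and of 56.8, 254 and 83.6 on the Math2 arrays, close to the array medians. Here array 1 was the lowest of both groups and array 2 the highest. Its log2 difference was 0.22 (SE 0.56; limma adjusted p = 1), and it was higher in 2 of 3 pairs. As a description over 6 arrays, the 3 brighter Id4 probe sets correlated with one another at a Pearson r of 0.898 to 0.961, and with this one at -0.632 to -0.305.

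**Figure D2:**
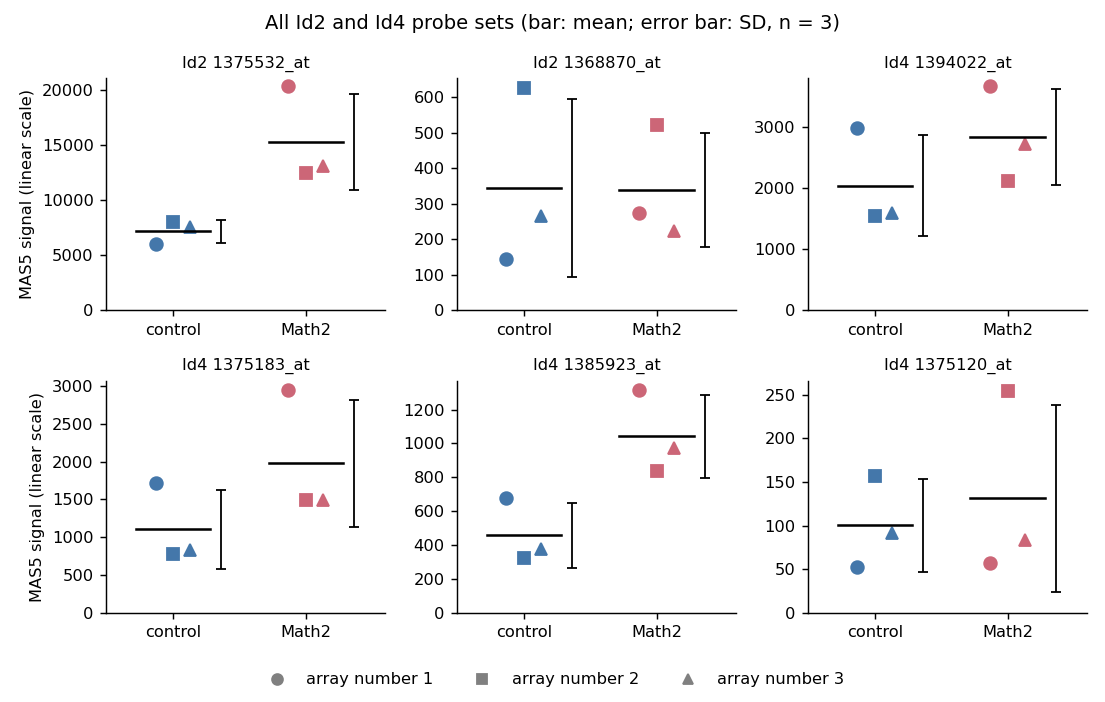
MAS5 signal (linear scale from 0) of both Id2 and all 4 Id4 probe sets on the 6 arrays; horizontal bars are means, error bars SD (n = 3), and marker shapes give the array number. The 3 brighter Id4 probe sets are highest on array 1 of each group, whereas 1375120_at is highest on array 2 of each group, at 157 and 254.

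Id1 and Id3, which are often expressed together and are induced by BMPs, were not separated between the groups. Id1 (1387028_a_at) had signals of 1853, 3387 and 2431 on the control arrays numbered 1, 2 and 3 and of 3324, 5763 and 2532 on the Math2 arrays. Array 2 was the highest of both groups, and Math2 arrays 1 and 3 lay below control array 2. Its log2 difference was 0.55 (SE 0.325, 95% interval -0.17 to 1.28; limma adjusted p = 1, or 0.522 with the block). Within pairs 1, 2 and 3 it was 0.84, 0.77 and 0.059, so pair 3 showed almost none of it. Without Math2 array 2 the difference was 0.23, and without Math2 array 3 it was 0.82.

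Id3 (1387769_a_at) had signals of 984, 4291 and 3931 on the control arrays and of 2361, 4836 and 2307 on the Math2 arrays. Control array 1 was far below the other controls, and the groups overlapped. The log2 difference was 0.22 (SE 0.512, 95% interval -0.91 to 1.35; limma adjusted p = 1). It was 1.26 in pair 1, 0.17 in pair 2 and -0.77 in pair 3. Without control array 1 it turned to -0.46 and without Math2 array 2 to -0.13, so no direction can be given for Id3. By the array design's naming, the suffix of the Id1 and Id3 probe sets marks probes shared by several transcripts of 1 gene.

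Of the E-protein genes, Tcf4 was the one whose brightest probe set was higher on every Math2 array. Tcf4 protein is an abundant class I partner in the developing and adult brain. Probe set 1368842_at had signals of 8886, 8499 and 10566 on the control arrays numbered 1, 2 and 3 and of 17589.9, 13775 and 11452 on the Math2 arrays. The groups did not overlap, though the lowest Math2 array, 3, lay just above the highest control array, 3. The log2 difference was 0.60 (SE 0.198, 95% interval 0.16 to 1.04), a 1.51-fold difference, which did not pass in limma (adjusted p = 1, or 0.42 with the block; exact permutation p = 0.1). In pairs 1, 2 and 3 it was 0.98, 0.70 and 0.12. This probe set is among the brightest 1%, whose median log2 difference was 0.43, and its own difference was 0.30 with quantile and 0.41 with cyclic loess normalization. With the latter the groups overlapped.

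The other Tcf4 probe set, 1368841_at, had signals of 1151, 1408 and 1726 on the control arrays and of 824, 2961 and 2482 on the Math2 arrays. Math2 array 1 was the lowest of all 6 arrays here, although in the brighter probe set it was the highest. Math2 arrays 2 and 3 lay above every control. The log2 difference was 0.37 (SE 0.424; limma adjusted p = 1), and it was 0.023 without Math2 array 2 and 0.94 without Math2 array 1.

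Tcf12, the HEB gene, did not differ in a fixed direction. Its bright probe set, 1388999_at, had signals of 9273, 4569.9 and 7229 on the control arrays numbered 1, 2 and 3 and of 7816, 4218 and 8973 on the Math2 arrays. Array 2 was the lowest of both groups. The log2 difference was -0.017 (SE 0.323, 95% interval -0.73 to 0.70; limma adjusted p = 1), and it was 0.21 without control array 1, 0.31 without Math2 array 2 and -0.30 without control array 2. It is also a bright probe set, and its difference was -0.17 with quantile and -0.14 with cyclic loess normalization. The dim Tcf12 probe set, 1387374_at, ranged from 27.4 to 106 on the control arrays and from 28.5 to 151 on the Math2 arrays, with a log2 difference of 0.28 (SE 0.61).

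Tcf3 had 1 probe set, 1369684_at, with signals of 42.2, 87.0 and 68.8 on the control arrays numbered 1, 2 and 3 and of 26.3, 41.7 and 48.7 on the Math2 arrays. These lay below every array median, and it was the member left out by the filter. Each Math2 array was lower than the control of its number, but the groups overlapped at control array 1 (exact permutation p = 0.2). The log2 difference was -0.65. With no filter limma gave an SE of 0.472 and an adjusted p of 1. Whether Tcf3 was above background is unknown, because detection calls are not part of the table.

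**Figure D3:**
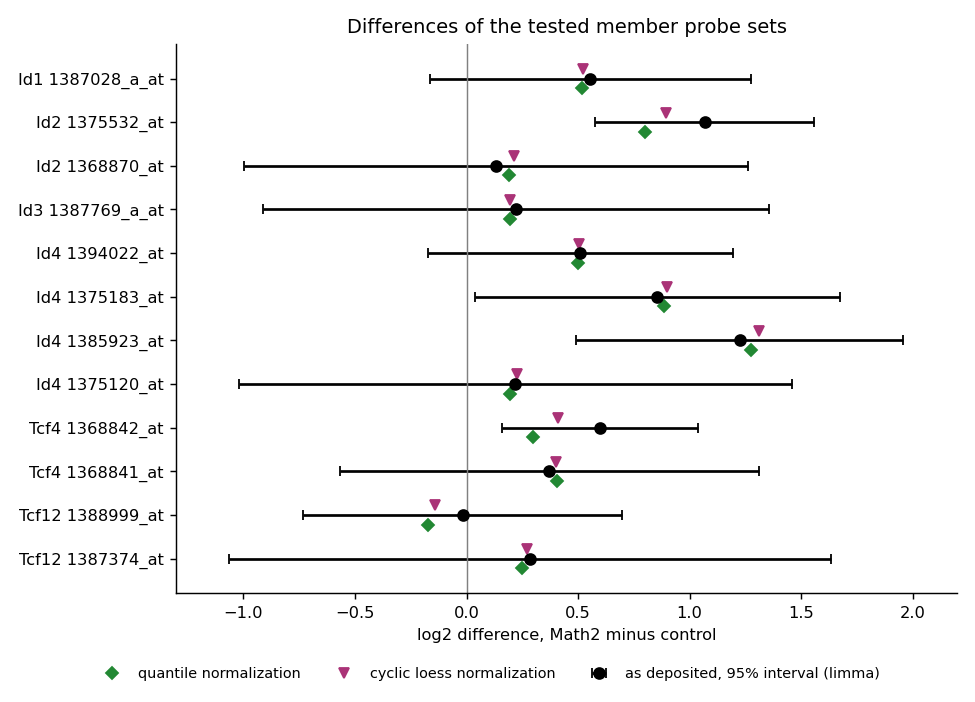
Log2 difference (Math2 minus control) of the 12 tested probe sets, with the limma 95% interval as the horizontal bar, beside the values after quantile (diamonds) and cyclic loess (triangles) normalization. The brightest Id2 and Tcf4 probe sets move toward 0 under both, from 1.07 and 0.60, while Id4 1385923_at stays above 1.20.

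Several members also followed the array number. In both groups, array 2 was the highest for Id1, for Id3, for Id2 1368870_at and for Id4 1375120_at, and the lowest for the bright Tcf12 probe set. In both groups array 1 was the highest for the 3 brighter Id4 probe sets. The numbers were treated as pairing the samples, as described with the processing. The summed signal of 10 neuronal markers also followed the number. It was 20493, 15067 and 26809 on the control arrays numbered 1, 2 and 3. On the Math2 arrays of the same numbers it was 18011, 15008 and 34636. In both groups it was lowest on array 2 and highest on array 3. Gap43, Stmn2, Dcx and Map2 make up most of that sum. Not every marker had this order, as Tubb3 and Rbfox3 were lowest on array 1 of both groups. The summed signal of 8 astrocyte and radial glia markers ranged from 46915 to 51106 on the control arrays and was 75158, 72193 and 45964 on the Math2 arrays of the same numbers. Vim and Fabp7, among the brightest probe sets of all, make up most of that sum; their log2 differences were 0.51 and 0.39, and -0.049 and -0.18 with quantile normalization. Signals of the 3′ end of Gapdh over its 5′ end, a ratio that grows as labelled RNA becomes less complete, followed the number too. The ratio was 13.8, 3.74 and 5.04 on the control arrays numbered 1, 2 and 3. On the Math2 arrays of the same numbers it was 8.48, 6.0 and 8.14. In both groups it was highest on array 1 and lowest on array 2. The part of cell makeup and RNA quality in the members' values was not tested.

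**Figure D4:**
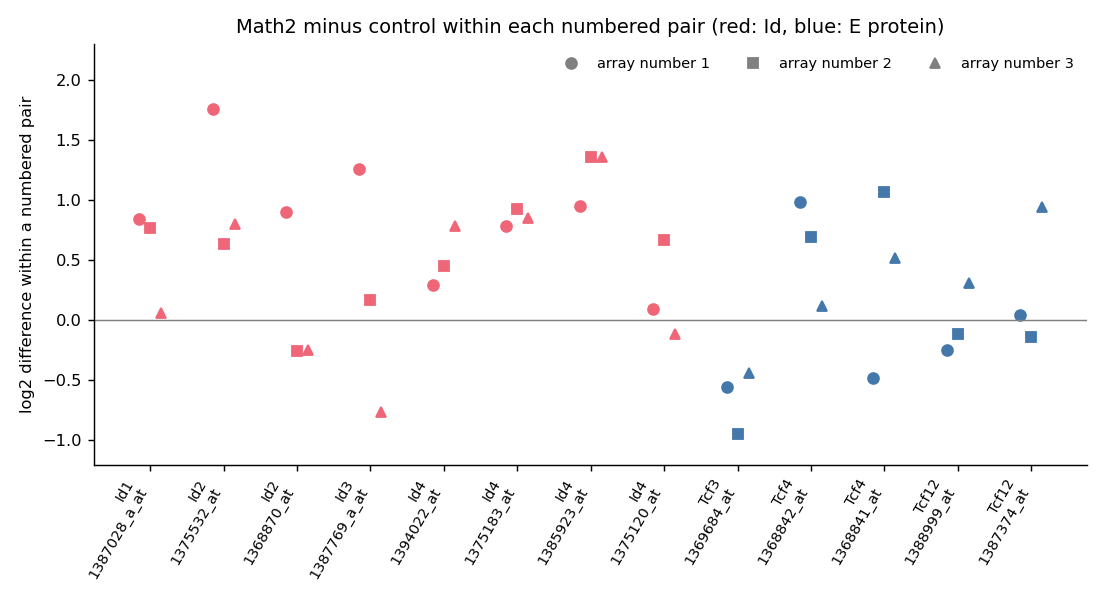
Log2 difference (Math2 minus control) within each of the 3 numbered pairs for all 13 probe sets, Id genes in red and E-protein genes in blue, with marker shape giving the pair. The bright Id2 probe set, the 3 brighter Id4 probe sets, Id1 and the bright Tcf4 probe set are above 0 in all 3 pairs, and Tcf3 is below 0 in all 3.

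Genes whose level followed that of the brightest Id and E-protein probe sets were picked by Pearson r over the 6 arrays among 13741 tested probe sets of other single genes. For Id2 the 5 highest were Ganc, a glucosidase, the cytokine gene Tnf, C16h8orf48, the translation initiation factor gene Eif3m and the linker histone gene H1f2, with r from 0.966 to 0.995. Their own log2 differences ranged from 0.20 to 2.3. The upper end is Tnf, with a control mean of 36.3, below every array median, and a Math2 mean of 268. Its control mean lay under the filter level, so Tnf was a candidate only through the Math2 arrays. For Tcf4 the 5 highest were Ndufa1, a subunit of respiratory complex I, the ribosomal protein genes Rpl5 and Rps23, the myosin light chain gene Myl12a and the actin gene Actg1, with r from 0.983 to 0.998. Of these, 4 had control means from 9563 to 23736, among the bright probe sets of the array, and their log2 differences ranged from 0.42 to 0.65, on both sides of the 0.60 of Tcf4. An r above 0.95 was reached by 18 probe sets for Id2 and by 42 for Tcf4. With 6 arrays that share the same differences in brightness this is a description only.

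**Figure D5:**
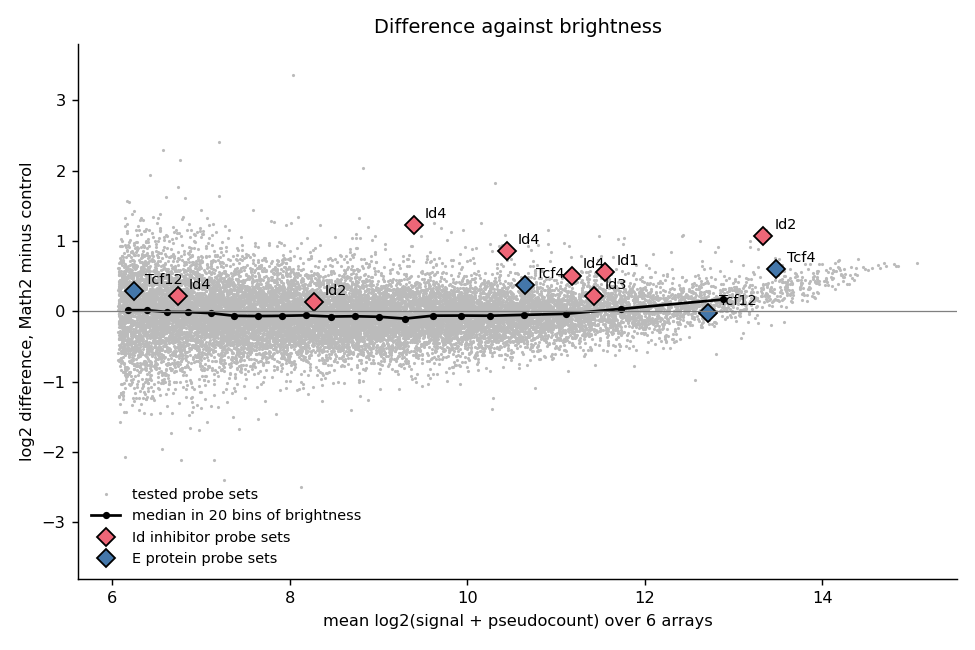
Log2 difference (Math2 minus control) against mean log2(signal + 7.42) over 6 arrays for the 18625 tested probe sets (grey), with the median in 20 bins of brightness (line) and the Id (red) and E-protein (blue) probe sets. The line rises to 0.17 in the brightest bin; the bright Tcf4 probe set lies in the upward-bent cloud at the right, Id2 above it, and Tcf12 below the line.

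Other genes of the network in which Id and E proteins act were read from 5 lists, with 71 of 86 genes on the array and 52 tested, each by its brightest probe set. Limma called 0 of the 52 at an adjusted p of 0.05, without or with the replicate block. At an unadjusted p of 0.05 in limma, 2 of the 52 were higher (Hes6 and Cdkn1c) and 0 lower, against 1.75% and 1.44% of all tested probe sets. With the block 3 were higher and 2 lower, against 3.78% and 3.92% of all. Of the tissue-restricted bHLH factors, which are the partners of E proteins, 11 were tested, 6 higher and 5 lower on the Math2 arrays, with a median of 0.021 on the log2 scale (-0.051 after quantile normalization). Without control array 2 that median was -0.40 and without Math2 array 2 it was 0.37, so no direction can be given for it. The smallest p in this list belonged to Neurod2, a relative of Math2, which measured 83.2 ± 43.7 and 158 ± 97.9 (SD, n = 3; log2 difference 0.78, or 0.34 without Math2 array 3 and 1.32 without Math2 array 1). Twist1, Scx and Myog, factors of mesenchymal and muscle lineages, had -0.49, -0.48 and -0.42, and without Math2 array 3 Scx had -0.11 and Myog -0.23. All of these were dim and their groups overlapped.

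Of the Hes, Hey and related repressors, 8 were tested, 4 higher and 4 lower, with a median of -0.15. Without control array 2 the median was 0.30, but the filter was set anew there and left out Heyl. The genes behind these medians therefore differ. Hes6, known to antagonize Hes1 and to favour neuronal differentiation, measured 2972 ± 24.6 on the control arrays and 4448 ± 1199.6 on the Math2 arrays (SD, n = 3; log2 difference 0.55, SE 0.227, limma adjusted p = 1). The groups of Hes6 did not overlap. Neither did those of the Notch target Hes5, at 46.6 ± 15.1 and 81.7 ± 12.9, below every array median. Math2 was thus higher without overlap for 2 of the 8, against 3.7% of all tested probe sets. The mean log2 level of Hes5 on the control arrays lay under the filter level, so it was tested only through the Math2 arrays. With any Math2 array left out, the filter removed Hes5. Hey1 and Heyl had log2 differences of -0.30 and -1.15, with overlapping groups, and Heyl had -0.48 without Math2 array 1. The mean log2 level of Heyl on the Math2 arrays lay under the filter level, so it was tested only through the control arrays. With any control array or Math2 array 2 left out, the filter removed Heyl.

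The BMP and SMAD list holds signals known to induce Id genes together with antagonists of BMPs, among them Fst and Nog. Its counts and median therefore give no direction for BMP signalling as a whole. Of this list 19 were tested, 7 higher and 12 lower, with a median of -0.16. The median was -0.024 without Math2 array 1, -0.045 without control array 3 and -0.052 without Math2 array 3. Acvr1, a type I receptor for BMPs, measured 1519 ± 469 and 2304 ± 718 (SD, n = 3; log2 difference 0.59). The BMP antagonists Fst and Nog had log2 differences of -0.70 and -0.31, and the signal transducer Smad1 had -0.30. Without control array 2 Fst had -0.34, and without Math2 array 1 Smad1 had -0.16 and Acvr1 0.37. Acvr1 was higher and Fst and Nog were lower in all 3 pairs, but the groups of all 4 genes overlapped. In the list of E-protein corepressors and coactivators, 9 were tested, 6 higher and 3 lower, with a median of 0.12, which ran from 0.050 to 0.24 with 1 array left out. Runx1t1 and Cbfa2t2, corepressors of the ETO family that bind E proteins, had log2 differences of 0.50 and 0.27, and the acetyltransferase gene Crebbp had -0.23. Without Math2 array 3 Runx1t1 turned to -0.12 and Cbfa2t2 had 0.069, and without Math2 array 1 Crebbp had -0.083. The LIM-only gene Lmo4 had 0.28, which turned to -0.051 with quantile normalization.

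Of the cyclin-dependent kinase inhibitors, whose genes are known targets of the balance of Id and E proteins, 5 were tested, 3 higher and 2 lower, with a median of 0.064, which turned to -0.092 without control array 1 and was 0.23 without control array 2. Cdkn1c (p57) had signals of 3796 ± 511 and 8073 ± 1176 (SD, n = 3), without overlap, and differed by 1.08 on the log2 scale (SE 0.201; adjusted p in limma = 0.933, or 0.12 with the block). It was the 1 gene of these 5 without overlap, against 3.7% of all tested probe sets with Math2 higher. Apart from Hes5 and Hes6, no other tested gene of the 5 lists was without overlap. Cdkn1b and Cdkn2c had log2 differences of 0.19 and -0.26, and that of Cdkn1b was 0.017 with quantile and 0.058 with cyclic loess normalization. Cdkn1a had 0.064, which turned to -0.078 with quantile and -0.055 with cyclic loess normalization.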

How the data were processed

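The deposited table gave a linear intensity for each probe set on each array, made by the authors with MAS5 per the submitters' processing notes; the sources used here give no version or settings. The mean without the lowest and highest 2% was 500 on every array (499.996 to 499.997), so the values were used as scaled. Scaling of this kind leaves differences among the brightest probe sets. Of 31099 probe sets, 57 controls were left out of the tests. Symbols came from an old platform annotation. Signals were transformed to log2(signal + 7.42), probe sets with a mean at or above 6.07 were kept, and limma 3.58.1 under R 4.3.3 compared the groups (lmFit and eBayes with a trend on intensity, two-sided, Benjamini-Hochberg over 18625 probe sets, threshold 0.05). Single values were also given an exact permutation test. The fit was run on simulated data with independent noise on each array, and no effect of array number or brightness was simulated. Its recovery is not given here, so it does not tell how far low power explains the absence of calls. Figures were drawn with matplotlib 3.10.9.

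Whether the numbers in the titles pair the samples was checked. Deviations from group means correlated at 0.326, 0.476 and 0.372 for arrays sharing number 1, 2 and 3, all above the limit of 0.1. Arrays of unlike number correlated at -0.46 to 0.104, and the highest of these, control 1 with Math2 3, also lay above that limit. Deviations within a group sum to 0, so these correlations are not independent of one another. The numbers were treated as pairing the samples on this basis alone, since the labels do not say what they stand for. The main comparison left them out; the replicate block was an alternative.

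The members and lists were chosen with earlier results of these data known. A gene's brightest probe set on average was given in full, and of each list the up to 4 genes with the smallest p were named. Other member probe sets were given in full too, beyond the rule. Alternatives were quantile, cyclic loess and median normalization, pseudocounts of 1 and 50, no filter or one at the 60th percentile, no intensity trend, the block with and without quantile normalization, and leaving out each array. No genome was used; promoters are from RefSeq (GRCr8).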

Additional observations from a re-analysis of the deposited data

Results flagged for a closer look

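The hybridization spike-ins, 18 control probe sets outside the comparison of genes, had a geometric mean signal 2.07-fold higher on the Math2 arrays than on the control arrays. They came up because a signal outside the main measurement lay above its level in the control samples. The signal was 2312 ± 366 on the control arrays and 4897 ± 1626 on the Math2 arrays (SD, n = 3; exact permutation p = 0.1, the smallest possible), and Math2 array 1, the highest for the brightest Id2 and Tcf4 probe sets, was also the highest for the spike-ins, at 6773. Groups of 3 arrays are too small for a test of single outlying samples.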

How the results depend on the processing

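Over 16 alternatives, 0 member probe sets were called in limma. The lowest adjusted p were 0.0806 for Id4 1385923_at and 0.0906 for Id2 1375532_at, both with the replicate block and quantile normalization, and the highest were 1. Of all probe sets, 3 were called higher with the replicate block, and 4 higher and 2 lower with the block and quantile normalization, against 0 otherwise; the cause was not tested. The block changed no other call.

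Both of these probe sets, Id4 1394022_at and 1375183_at, Id1 and both Tcf4 probe sets kept their direction in all 16. Leaving out 1 array at a time gave log2 differences of 0.84 to 1.20 for Id2 1375532_at, 1.01 to 1.54 for Id4 1385923_at, 0.31 to 0.82 for Id4 1394022_at, 0.53 to 1.22 for Id4 1375183_at, 0.44 to 0.75 for Tcf4 1368842_at and 0.23 to 0.82 for Id1. The direction turned for Id3 (-0.46 to 0.59), Tcf12 1388999_at (-0.30 to 0.31), Id2 1368870_at (-0.36 to 0.68), Id4 1375120_at (-0.37 to 0.64), Tcf12 1387374_at (-0.21 to 0.89), Cdkn1a (-0.092 to 0.28) and Runx1t1 (-0.12 to 1.08). The ranges were -1.05 to -0.34 for Fst, -0.52 to -0.16 for Smad1, 0.37 to 0.84 for Acvr1, -0.99 to -0.11 for Scx, -0.75 to -0.23 for Myog, -0.75 to -0.30 for Twist1 and 0.34 to 1.32 for Neurod2. Those of the list medians were -0.40 to 0.37 (class II factors), -0.16 to 0.30 (Hes and Hey), -0.18 to -0.024 (BMP and SMAD), 0.050 to 0.24 (corepressors and coactivators) and -0.092 to 0.23 (kinase inhibitors). Because the filter was set anew each time, the genes behind a list median could change.

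Member probe sets higher without overlap numbered 2 with cyclic loess normalization, against 3.72% of all tested. They numbered 3 to 5 with 1 array left out, against 6.26% to 10.6%. The 5 were reached without control array 1, which added Id4 1394022_at and 1375183_at, against 7.82%. They numbered 4 without control array 2, against 6.89%, and without Math2 array 1, against 6.26%.

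With quantile normalization Lmo4 turned to -0.051 and Cdkn1a to -0.078, with or without the block, and Cdkn1a to -0.055 with cyclic loess. The Math2 to control ratio of Gapdh 3′ to 5′ was 1.17, and with 1 array left out, a setting chosen after seeing the data, it ran from 0.893 (without control array 2) to 1.72 (without control array 1). Without detection calls, nothing beyond the signals can be said of Tcf3 and other probe sets at or under the array medians.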
